A study of Mus musculus with 16 samples.

Results

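The comparison described here is the loss of 1 Ezh1 allele in embryonic mouse kidneys that already lack Ezh2 in their nephron progenitors. It rests on 8 of the 16 arrays of the series: 4 titled Ezh2-KO & Ezh1-heterozygousKO (called Ezh1-het below) and 4 titled Ezh2-KO & Ezh1-WT (called Ezh2-KO). The members were chosen by their titles alone. All samples were whole kidneys of C57BL/6 embryos at embryonic day 17.5. Both groups carried a conditional Ezh2 deletion in Six2-positive nephron progenitors and their descendants, so stroma, vessels, ureteric tree and blood cells kept Ezh2. The Ezh1 knockout was in the germline and concerned every cell. The other arrays, used as landmarks, were 4 of control kidneys and 4 in which both Ezh1 alleles were lost as well (double-KO). Each array carried its sample in Cy5 and the RNA of control 1 in Cy3, with no dye swap, and values are log2(Cy5/Cy3), so that 0 is the level of control 1. A value of a whole kidney averages over all cell types, and fewer cells of a type and less RNA per cell cannot be told apart.

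Ezh2 and Ezh1 are the alternative catalytic subunits of Polycomb repressive complex 2 (PRC2), which methylates lysine 27 of histone H3 and keeps developmental regulators and cell cycle inhibitors silent. Ezh2 is the form of dividing progenitors, and Ezh1 is more prominent in cells that have left the cell cycle. Well-known PRC2 targets are the Hox clusters, transcription factors of other lineages, and the Cdkn2a and Cdkn2b locus, whose products p16Ink4a, p19Arf and p15Ink4b halt proliferation.

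Markers of the labelled tissue were detected. On all 8 arrays 30 of 30 nephron progenitor genes and 23 of 29 measured podocyte genes were well above background. So were 27 of 35 measured proximal tubule genes. Over all genes tested this held for 13858 of 15646, so these counts show detection and do not identify the tissue. The share of probes clearly above the background of the sample dye was 58.3% to 63.4% on the Ezh2-KO arrays and 56.5% to 58.3% on the Ezh1-het arrays, and no spot was saturated. Replicates 1 and 2 of every group lay on slide 1, and replicates 3 and 4 on slide 2. On both slides the Ezh2-KO arrays were in row 1 and the Ezh1-het arrays in row 2, so genotype and slide row cannot be told apart. The Ezh2-KO arrays stood apart from each other: their scores on the first principal component of all 16 arrays, which held 36.1% of the variance, ran from 31.4 (replicate 1) and 10.3 (replicate 2) down to -10.3 (replicate 3) and -24.2 (replicate 4). The Ezh1-het arrays scored -28.5, -17.4, -13.6 and -16.7. The controls scored -3.18, 2.98, 37.3 and -4.14, and the double-KO arrays -0.479, 13.7, 0.146 and 22.6. A wide spread was thus not particular to Ezh2-KO. Because the Ezh2-KO scores differed between the slides, the results are given for each slide as well.

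Few genes differed after loss of the first Ezh1 allele. In Ezh1-het kidneys 6 genes were higher than in Ezh2-KO kidneys, among them the cell cycle inhibitors Cdkn2a and Cdkn2c, the distal Hox genes Hoxd13 and Hoxa13, and the olfactory receptor Olfr224. The 3 lower genes were Ezh1 itself, the small GTPase gene Arl16 and the antiviral interferon target Rsad2. In all, 9 genes had an adjusted p under 0.05 in limma (Benjamini-Hochberg, 1 fit of 16 arrays), of 15646 tested or 0.0575% (0.0383% higher and 0.0192% lower). At an unadjusted p under 0.05 there were 1153 genes, 619 higher (3.96%) and 534 lower (3.41%). Separately, for 712 genes (4.55%) the 4 arrays of one group lay wholly above the 4 of the other, 311 of them higher in Ezh1-het (1.99%) and 401 lower (2.56%). The counts depended on single arrays: the 9 became 3 without Ezh2-KO replicate 2, 4 without Ezh1-het replicate 2 or 4, 5 without replicate 3 of either group, and 35 without Ezh2-KO replicate 4. With median centring of each array in place of loess 7 genes were higher and 0 lower, and Ezh1 itself missed the threshold (-1.16, adjusted p = 0.2). The titles number the samples of each group 1 to 4, but the labels do not say which embryos or litters they came from.

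**Figure D1:**
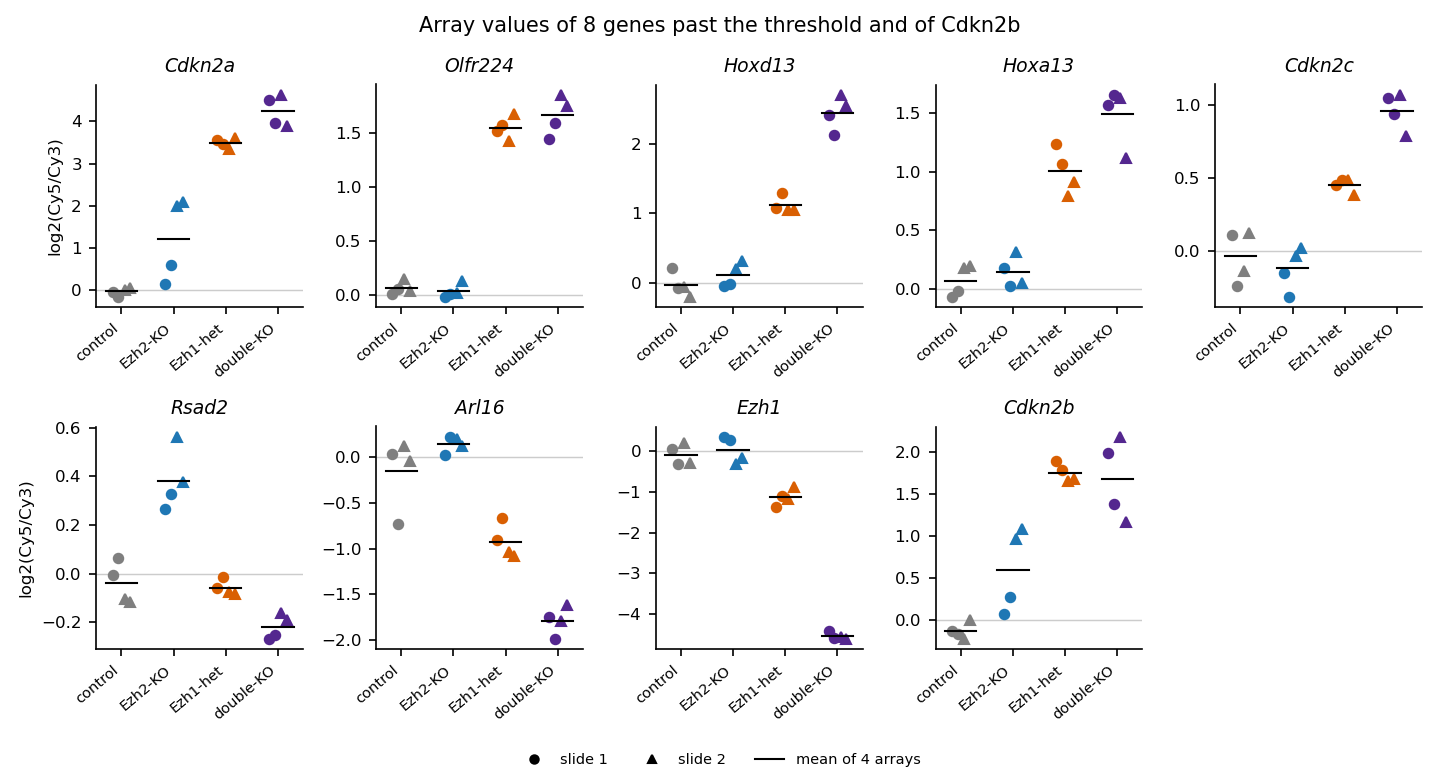
Each panel plots log2(Cy5/Cy3) of 1 gene on the 16 arrays by group, with circles for slide 1, triangles for slide 2 and a bar at the mean of 4 arrays. Olfr224 lies between 1.43 and 1.68 in Ezh1-het and at or below 0.13 in Ezh2-KO, and the 2 Ezh2-KO arrays of slide 2 have more Cdkn2a (2.01 and 2.08) than those of slide 1 (0.15 and 0.61).

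Ezh1 followed the labels. Its log2 ratio was 0.37, 0.28, -0.30 and -0.17 on Ezh2-KO arrays 1 to 4, and -1.38, -1.09, -1.17 and -0.88 on Ezh1-het arrays 1 to 4. The groups did not overlap, and the double-KO arrays lay lower still, at -4.44 to -4.62. The difference was -1.18 (SE 0.15, n = 4 per group, limma adjusted p = 0.00535), a 2.26-fold lower level with 1 allele. It was -1.56 on slide 1 and -0.80 on slide 2, and the contrast of the slides did not pass the threshold (interaction adjusted p = 0.33). With only these 2 groups fitted, Ezh1 missed the threshold (limma adjusted p = 0.101). Removal of the other allele lowered Ezh1 by a further -3.42 (SE 0.15, adjusted p = 3.46e-09).

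Ezh2 RNA was carried by 5 probes, and none passed the threshold (differences of -0.06 to -0.17, adjusted p over all probes 0.869 or more). One of them, A_51_P248067, read -3.38, -3.47, -2.83 and -3.59 in Ezh2-KO and -3.74, -3.35, -3.04 and -3.61 in Ezh1-het, far below control 1 in both groups. The other 4 probes stayed between 0.10 and -0.55. The positions of these probes relative to the deleted part were not analysed here.

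No other subunit of PRC2 passed the threshold. Of the 13 measured genes of the list, which also holds the core subunits Eed and Suz12, the histone binders Rbbp4 and Rbbp7 and the accessory subunits Jarid2, Aebp2 and Mtf2, only Ezh1 passed the threshold. Suz12 differed by 0.05 (SE 0.11), Eed by -0.07 (SE 0.10) and Jarid2 by 0.07 (SE 0.15). The list median was -0.06, beside -0.01 over all genes tested.

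Cdkn2a, which encodes p16Ink4a and p19Arf from different start sites, had the largest rise on these loess-normalised ratios. Its log2 ratio was 0.15, 0.61, 2.01 and 2.08 on the Ezh2-KO arrays and 3.56, 3.46, 3.35 and 3.62 on the Ezh1-het arrays. The Ezh1-het arrays were thus high and close together, whereas the Ezh2-KO arrays fell into a low pair on slide 1 and an intermediate pair on slide 2, without overlap between the groups. The controls lay between -0.15 and 0.06 and the double-KO arrays between 3.89 and 4.64. The difference was 2.28 (SE 0.33, limma adjusted p = 0.0100), a 4.87-fold rise. It was 3.13 on slide 1 (adjusted p = 0.000102) and 1.44 on slide 2 (adjusted p = 0.203), a contrast that did not pass the interaction test (adjusted p = 0.137). Among the Ezh2-KO arrays alone, slide 2 was 1.66 above slide 1 (adjusted p = 0.0143). The call was lost without Ezh1-het replicate 2 (adjusted p = 0.0567), without Ezh1-het replicate 4 (0.0617) and without Ezh2-KO replicate 2 (0.069), with differences of 2.30, 2.24 and 2.08. It was also lost with the processed log ratio of the scanner software, which is corrected for background and dye in its own way (2.77, SE 0.81, adjusted p = 0.73). Olfr224, Hoxa13 and Hoxd13 had larger differences than Cdkn2a by that measure. With only these 2 groups fitted, the Cdkn2a call was lost too (limma adjusted p = 0.292). The Cdkn2a probe tested here was well above background on 3 Ezh2-KO, 4 Ezh1-het, 4 double-KO and 0 control arrays. It thus passed the filter on dim probes only with Ezh1-het or double-KO arrays, where it was high. Its call among the filtered genes is therefore a description. With no filter, its limma adjusted p over all probes was 0.0148. The standard deviation of Cdkn2a was 0.98 in Ezh2-KO, 0.12 in Ezh1-het, 0.09 in controls and 0.38 in double-KO. A second, dimmer Cdkn2a probe was well above background on all 4 Ezh1-het arrays and on 0 Ezh2-KO arrays, and differed by 0.61 (adjusted p over all probes 0.0709). From Ezh1-het to double-KO the rise was 0.75 (SE 0.33, adjusted p = 0.321).

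Cdkn2b, the neighbouring gene for p15Ink4b, had a like order of arrays at lower ratios: 0.08, 0.27, 0.97 and 1.08 on the Ezh2-KO arrays and 1.89, 1.78, 1.65 and 1.68 on the Ezh1-het arrays. Again the Ezh2-KO arrays of slide 2 lay between those of slide 1 and the Ezh1-het arrays, and the groups did not overlap. The difference of 1.15 (SE 0.22) missed the threshold (adjusted p = 0.123) and passed it without Ezh2-KO replicate 4 (1.31, adjusted p = 0.0308). Its second probe gave 1.02, and the processed log ratio 2.04 (adjusted p = 0.59).

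Cdkn2c, which encodes p18Ink4c, read -0.15, -0.32, -0.03 and 0.02 in Ezh2-KO, and 0.45, 0.48, 0.48 and 0.38 in Ezh1-het. The Ezh1-het arrays were close together and above every Ezh2-KO array, and the Ezh2-KO arrays differed between the slides by 0.23 (adjusted p = 0.448). The difference was 0.57 (SE 0.10, adjusted p = 0.0477), near the threshold: 7 of the 8 fits that left out 1 of these arrays lost the call, the exception being Ezh2-KO replicate 4. By the processed log ratio it was 0.96 (SE 0.15, adjusted p = 0.0455). From Ezh1-het to double-KO it rose again, by 0.51 (SE 0.10, adjusted p = 0.0329).

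Among the 8 cyclin-dependent kinase inhibitors on the array, 2 passed the threshold, both higher, beside 0.0383% of all genes. The arrays of 4 did not overlap and were higher (Cdkn2a, Cdkn2b, Cdkn2c and Cdkn1a, the p21 gene, at 0.68 with SE 0.17 and adjusted p = 0.374), and those of 1 did not overlap and were lower (Cdkn1b, the p27 gene, at -0.13), beside 1.99% higher and 2.56% lower over all genes. The list median was 0.44 (0.64 on slide 1 and 0.25 on slide 2). Cdkn2d, the gene for p19Ink4d, differed by 0.10 (SE 0.10) and Cdkn1c, the p57 gene, by 0.31 (SE 0.16, adjusted p = 0.667). Cdkn1a, Cdkn2d and other names below that neither passed the threshold nor were among the 2 largest differences of their list were chosen after their values were seen.

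The promoters of the risen genes differed in sequence. The 250 bases before the start site of 5 transcripts are given from RefSeq (GRCm38.p6). They set the CG-rich upstream start of Cdkn2a and those of Hoxd13 and Hoxa13 beside starts with fewer CG. These are the downstream Cdkn2a start, near the median of all promoters, and that of Olfr224, below the median. The bases are written 5′ to 3′ on the gene's strand in lower case, with each CG dinucleotide (C followed by G, which reads the same on both strands) in capitals. Cdkn2a has 2 start sites in this table: the upstream one (chr4:89294620-89294869, minus strand, the p19Arf start) and the downstream one (chr4:89282193-89282442, minus strand, the p16Ink4a start). The windows of the others are chr2:74667975-74668224 (Hoxd13, plus strand), chr6:52260881-52261130 (Hoxa13, minus strand) and chr11:58570569-58570818 (Olfr224, minus strand).
Cdkn2a, upstream start: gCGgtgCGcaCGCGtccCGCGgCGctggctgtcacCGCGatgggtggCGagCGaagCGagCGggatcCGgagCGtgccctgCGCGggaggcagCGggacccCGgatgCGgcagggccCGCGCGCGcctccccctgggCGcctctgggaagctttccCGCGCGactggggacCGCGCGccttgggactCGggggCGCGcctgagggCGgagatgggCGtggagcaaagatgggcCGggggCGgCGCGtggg
Cdkn2a, downstream start: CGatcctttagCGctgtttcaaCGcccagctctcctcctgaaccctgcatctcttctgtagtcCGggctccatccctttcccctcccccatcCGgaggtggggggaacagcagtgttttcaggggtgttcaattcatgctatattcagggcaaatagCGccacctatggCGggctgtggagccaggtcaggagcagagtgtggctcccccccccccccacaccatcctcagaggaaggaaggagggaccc
Hoxd13: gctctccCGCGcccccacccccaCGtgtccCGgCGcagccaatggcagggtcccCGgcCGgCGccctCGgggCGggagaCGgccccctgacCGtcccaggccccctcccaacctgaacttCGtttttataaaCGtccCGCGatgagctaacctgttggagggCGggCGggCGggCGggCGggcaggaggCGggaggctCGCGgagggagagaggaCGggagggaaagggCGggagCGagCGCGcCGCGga
Hoxa13: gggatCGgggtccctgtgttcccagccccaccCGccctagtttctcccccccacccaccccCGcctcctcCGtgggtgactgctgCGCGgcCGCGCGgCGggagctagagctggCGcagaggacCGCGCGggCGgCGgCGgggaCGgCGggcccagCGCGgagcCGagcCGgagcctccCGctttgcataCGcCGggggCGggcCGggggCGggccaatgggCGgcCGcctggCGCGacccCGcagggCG
Olfr224: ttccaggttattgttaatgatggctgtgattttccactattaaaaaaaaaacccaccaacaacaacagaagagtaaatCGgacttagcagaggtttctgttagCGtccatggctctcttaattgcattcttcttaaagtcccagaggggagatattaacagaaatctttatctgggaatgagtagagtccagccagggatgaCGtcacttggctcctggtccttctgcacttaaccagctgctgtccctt
The upstream Cdkn2a start holds 40 CG dinucleotides, a number reached by 1.31% of the 32851 RefSeq promoters of this length, whose median is 6. Hoxa13 holds 35 (reached by 2.97%) and Hoxd13 holds 31 (5.19%). The downstream Cdkn2a start holds 7 (46.3%) and Olfr224 holds 3 (71%). Of the genes described in this way Cdkn2b has 12 (33.5%), and Cdkn2c has 29 (6.78%) and 6 (50.4%) at its 2 starts. Among genes that fell, Arl16 has 34 (3.53%), Ezh1 14 (29.4%) and Rsad2 6 (50.4%), so many CG were not particular to risen genes. These counts describe the windows, and no binding or methylation was measured there.

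Of the Hox genes, 2 at the 5′ ends of their clusters rose and no other passed the threshold. Hoxd13, which patterns digits and the genital tubercle, read -0.04, -0.01, 0.20 and 0.32 in Ezh2-KO, and 1.07, 1.29, 1.04 and 1.05 in Ezh1-het. Every Ezh1-het array stood above every Ezh2-KO array, and the double-KO arrays at 2.12 to 2.70 stood above both. The difference was 1.00 (SE 0.12, adjusted p = 0.00448), 1.21 on slide 1 and 0.79 on slide 2, and the call held in all 8 fits that left out 1 array of these groups. By the processed log ratio it was 2.89 (SE 0.57) and the call was lost (adjusted p = 0.205). From Ezh1-het to double-KO Hoxd13 rose by another 1.33 (SE 0.12, adjusted p = 6.15e-05).

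Hoxa13, needed in the limb and the hindgut and urogenital outlet, read 0.18, 0.02, 0.31 and 0.05 in Ezh2-KO and 1.23, 1.07, 0.79 and 0.91 in Ezh1-het. The groups did not overlap. The difference was 0.86 (SE 0.13, adjusted p = 0.0100), with 1.05 on slide 1 and 0.67 on slide 2, and 3.00 by the processed log ratio (SE 0.47, adjusted p = 0.0407). It missed the threshold without Ezh1-het replicate 2 (adjusted p = 0.0649) and without Ezh2-KO replicate 2 (0.069). Both genes were dim before the allele was lost: Hoxd13 was well above background on 2 Ezh2-KO arrays and Hoxa13 on 1, against 4 Ezh1-het arrays for each, so both differences may be compressed. On 0 control arrays was either well above background. Both thus passed the filter on dim probes only with Ezh1-het or double-KO arrays, where they were high. Their calls among the filtered genes are therefore descriptions. With no filter, the limma adjusted p over all probes were 0.00726 for Hoxd13 and 0.0147 for Hoxa13.

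The other members of Hox group 13 lay the same way without passing the threshold. Hoxb13 read 0.00, 0.02, 0.30 and 0.23 in Ezh2-KO, where it was not well above background on any array, and 1.38, 0.81, 0.97 and 0.90 in Ezh1-het, where it was on all 4. It was at least 1.84-fold higher in Ezh1-het (difference 0.88, SE 0.17, adjusted p = 0.142). Hoxc13 was not well above background on any of the 8 arrays, and its difference was 0.21 (SE 0.10, adjusted p = 0.667). Hoxc13 passed the filter on dim probes only through the double-KO arrays, and Hoxb13 only through those and the Ezh1-het arrays. The group 13 median of 0.87 (2.18 by the processed log ratio) is therefore a description of members admitted where they were high, and supports nothing.

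In Hox groups 9 to 12 none of the 12 measured genes passed the threshold and none had arrays without overlap (1 higher and 1 lower at an unadjusted p under 0.05). Their median was -0.19, -0.47 on slide 1 and -0.00 on slide 2. In groups 1 to 8 none of 22 passed. At an unadjusted p under 0.05, 0 were higher and 4 lower (3.96% and 3.41% over all genes). Without overlap 2 were lower (Hoxd4 at -0.24 and Hoxc5 at -0.41), beside 2.56% over all genes, and the median was -0.16. The largest differences there were Hoxb9 at 0.40 (SE 0.18), Hoxc6 at -0.48 (SE 0.23) and Hoxa6 at -0.47 (SE 0.20), with adjusted p of 0.667 for each.

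Transcription factors of tissues outside the kidney, many of them Polycomb targets, were measured for 45 of the 87 genes in that list, and 1 of the 45 passed the threshold, higher. Over all genes 0.0383% passed higher. A factor silent in control and Ezh2-KO kidneys could enter the 45 only through Ezh1-het or double-KO arrays on which it was high, so it could not have been lower, and the counts and the median of this list support nothing. Of the 45, 8 were higher without overlap and none lower (1.99% and 2.56% over all genes). One of the 8, Tbx15, was well above background on 0 of the 8 arrays compared. En2, of the midbrain and cerebellum, differed by 1.26 (SE 0.28, adjusted p = 0.287). Nkx6-1, of the neural tube and pancreatic beta cells, differed by 0.84 (SE 0.21, adjusted p = 0.373). The T-box gene Tbx2 lay at 0.71, the hindlimb factor Pitx1 at 0.56 and Pax9, of the pharyngeal pouches and teeth, at 0.40. The arrays of these 5 did not overlap, but none of the 5 passed, and the list median was 0.10 on the log2 scale.

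Olfr224, an olfactory receptor gene on chromosome 11, had the smallest adjusted p. It read -0.02, 0.01, 0.02 and 0.13 in Ezh2-KO, and 1.52, 1.57, 1.43 and 1.68 in Ezh1-het. The 4 Ezh1-het arrays lay with the double-KO arrays (1.45 to 1.86), and the Ezh2-KO arrays lay with the controls (0.00 to 0.15). The difference was 1.52 (SE 0.09, adjusted p = 1.34e-07), 1.55 on slide 1 and 1.48 on slide 2. Its probe was well above background on 4 Ezh1-het arrays, 1 Ezh2-KO array and 0 control arrays, so the difference may be compressed. The probe thus passed the filter on dim probes only with Ezh1-het or double-KO arrays, where it was high. Its call among the filtered genes is therefore a description. With no filter, its limma adjusted p over all probes was 1.02e-07. The difference was past the threshold in all 25 alternative settings, over which it ran from 1.47 to 3.31, the highest with the authors' value table. From Ezh1-het to double-KO the difference was 0.11 (SE 0.09, adjusted p = 0.634).

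Arl16, a gene for a small GTPase of the ARF-like family and also on chromosome 11, fell. It read 0.03, 0.22, 0.19 and 0.12 in Ezh2-KO and -0.91, -0.66, -1.04 and -1.08 in Ezh1-het. Double-KO arrays were lower, at -1.62 to -1.98, and control 2 lay at -0.73 while the other controls lay between -0.05 and 0.12. The difference was -1.06 (SE 0.15, adjusted p = 0.0100), -0.91 on slide 1 and -1.22 on slide 2, and a second Arl16 probe gave -0.94 (SE 0.12, adjusted p over all probes 0.00726). The call was lost without Ezh1-het replicate 3 (0.0522) or 4 (0.0617) and without Ezh2-KO replicate 2 (0.069) or 3 (0.0512), and with the processed log ratio (-1.36, SE 0.30, adjusted p = 0.362). Another -0.86 (SE 0.15, adjusted p = 0.0198) separated double-KO from Ezh1-het. Ezh1, Arl16 and Olfr224 made 3 of the 9 changed genes lie on chromosome 11, which carries 1302 or 8.32% of the genes tested. Ezh1 is the knocked-out gene itself, so this count was set in part by the design and is a description.

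Rsad2, the gene for the antiviral enzyme viperin, read 0.27, 0.33, 0.56 and 0.38 in Ezh2-KO and -0.06, -0.01, -0.08 and -0.08 in Ezh1-het. It was well above background on all 4 Ezh2-KO arrays and on 0 Ezh1-het arrays, so its level in Ezh1-het was at least 1.36-fold lower (difference -0.44, SE 0.07, adjusted p = 0.0355). The controls, at -0.11 to 0.06, lay with the Ezh1-het arrays, but 0 control and 0 double-KO arrays were well above background either. Rsad2 thus passed the filter on dim probes only through the Ezh2-KO arrays, where it was high. Its call among the filtered genes is therefore a description. With no filter, its adjusted p over all probes was 0.0293. Its second probe gave -0.28 (adjusted p over all probes 0.819), and the processed log ratio -1.82 (SE 0.20, adjusted p = 0.00272). The call was lost without any 1 of the 4 Ezh1-het arrays and without Ezh2-KO replicate 2 or 3. It was lost as well with only the 2 groups fitted (limma adjusted p = 0.303).

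No target of p53, which p19Arf can activate, passed the threshold. Of 25 measured p53 targets 0 passed in limma, 8 had an unadjusted p under 0.05, all higher (3.96% of all genes), and 7 were higher without overlap while 0 were lower (1.99% and 2.56% of all genes). Pmaip1, the gene for the death protein Noxa, read -0.05, 0.34, 0.86 and 1.04 in Ezh2-KO and 1.66, 1.12, 1.54 and 1.36 in Ezh1-het (difference 0.88, SE 0.25, adjusted p = 0.502). As for Cdkn2a, the Ezh2-KO arrays of slide 2 lay between the others. Ccng1, for cyclin G1, differed by 0.67 (SE 0.18), Zmat3, for an RNA-binding protein, by 0.48 (SE 0.13), and Eda2r, for a receptor of the tumour necrosis factor family, by 0.45 (SE 0.11), with adjusted p between 0.373 and 0.466. The median over all 25 was 0.08.

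No gene of cell proliferation passed the threshold. Of 34 proliferation genes 0 passed in limma and 1 had an unadjusted p under 0.05, Foxm1, a transcription factor of mitotic genes, at -0.54 (SE 0.17, adjusted p = 0.655). Its values were 0.63, 0.59, 0.87 and 0.34 in Ezh2-KO and -0.37, 0.25, 0.19 and 0.20 in Ezh1-het, without overlap. The list median was -0.00 and the largest rise 0.18. Of 9 measured secretory genes of senescence 0 passed in limma and 0 had an unadjusted p under 0.05. Over all genes 3.96% were higher and 3.41% lower at that level. Igfbp7, for an insulin-like growth factor binding protein, had the largest difference (0.77, SE 0.45), which was 1.51 on slide 1 and 0.03 on slide 2.

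Of the oncofetal genes, Lin28b and Bcl11a read high in both groups. Lin28b, a suppressor of let-7 maturation, lay between 1.47 and 2.09 in Ezh2-KO and between 1.81 and 1.92 in Ezh1-het (difference 0.07, SE 0.12). Bcl11a, the repressor of fetal globin, lay between 1.74 and 1.99 in Ezh2-KO and between 1.75 and 2.02 in Ezh1-het (difference 0.05, SE 0.13). The groups overlapped, and all 8 arrays lay above the controls for both genes. The other members were not all high: the list median on each array was 0.13 to 0.26 in Ezh2-KO and 0.07 to 0.22 in Ezh1-het. The median difference of the 15 genes was 0.04, and 0 passed in limma. At an unadjusted p under 0.05, 1 was higher and 1 lower, beside 3.96% and 3.41% over all genes.

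**Figure D2:**
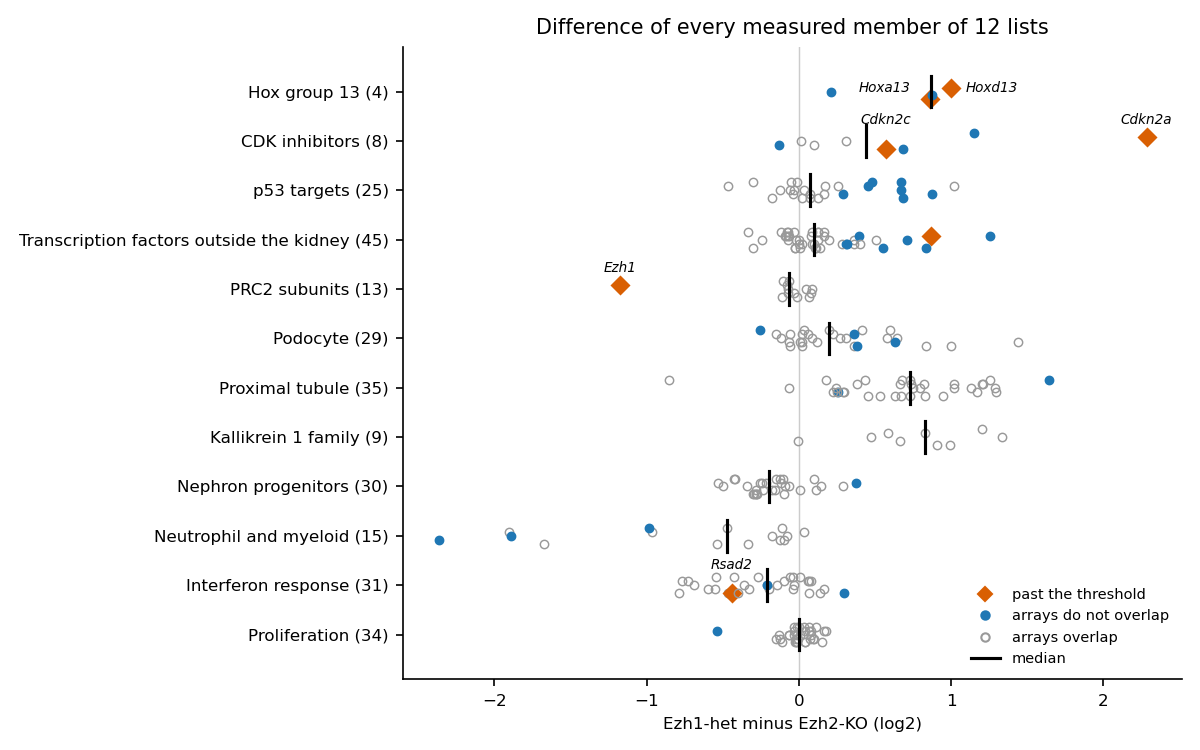
Each symbol is a measured gene of 1 of 12 lists (number of measured genes in brackets), placed at its log2 difference Ezh1-het minus Ezh2-KO; diamonds passed the threshold, filled circles have arrays that do not overlap, open circles overlap, and bars are medians. The medians run from 0.87 for Hox group 13 to -0.47 for the neutrophil list, while proliferation genes centre on -0.00.

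No gene of podocytes, the filtering cells of the glomerulus, passed the threshold. Of 29 measured podocyte genes 0 passed in limma, 11 were higher and 1 lower at an unadjusted p under 0.05 (3.96% of all genes were higher and 3.41% lower at that level), and 23 differences were positive. The median of the podocyte genes on each array ran from -0.13 to 0.06 in Ezh2-KO and from 0.19 to 0.29 in Ezh1-het. These ranges did not overlap, and the double-KO medians (-0.05 to 0.01) lay within the range of Ezh2-KO. Ptpro, for a podocyte phosphatase, read -0.86, -0.24, 0.06 and 0.81 in Ezh2-KO and 1.21, 0.94, 0.66 and 0.95 in Ezh1-het (difference 1.00, SE 0.27, adjusted p = 0.476). Its groups overlapped through Ezh2-KO array 4. Nphs1, for nephrin of the slit diaphragm, differed by 0.84 (SE 0.21, adjusted p = 0.373). Wt1, the transcription factor that podocytes share with progenitors, differed by -0.15 (SE 0.15). The list median was 0.20, with 0.22 on slide 1 and 0.12 on slide 2.

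Tubule genes had higher medians in Ezh1-het on slide 1 and medians near 0 on slide 2. For 35 proximal tubule genes the list median difference was 0.73, made of 1.37 on slide 1 and 0.04 on slide 2. In limma 0 passed, and 5 were higher and 0 lower at an unadjusted p under 0.05 (3.96% and 3.41% over all genes). Lrp2, the endocytic receptor megalin, read -3.07, -1.20, -0.49 and 0.26 in Ezh2-KO, and 0.57, 0.18, 0.03 and -0.11 in Ezh1-het. The lowest of these were the Ezh2-KO arrays of slide 1, and the groups overlapped. Outside these groups, control 3 of slide 2 read -2.385 and the double-KO arrays ran from -0.84 to -2.76. Low values were thus not particular to Ezh2-KO. The contrast of the slides did not pass for Lrp2 (2.51 and 0.08, interaction adjusted p = 0.401). Ttr, for transthyretin, was the largest difference of the list (1.65, SE 0.45, adjusted p = 0.476), with 2.48 on slide 1 and 0.81 on slide 2 and no overlap.

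Other epithelial lists also had their higher medians on slide 1. The 9 measured genes of the kallikrein 1 family, which encode secreted serine proteases, had a median of 0.83, 1.52 on slide 1 and 0.14 on slide 2. Loop of Henle and distal tubule genes had 0.19 (0.73 and -0.09), led by the sodium transporter Slc12a1 at 1.18 (SE 0.65), and collecting duct and urothelium genes 0.34 (0.66 and -0.05), led by Tfap2b at 1.27 (SE 0.66). Early nephron genes had 0.28 (0.68 and 0.02), with the Iroquois factors Irx2 at 1.15 and Irx1 at 1.15. In these 4 lists 0 genes passed in limma, and 8, 2, 1 and 1 were higher and 0, 0, 0 and 2 lower at an unadjusted p under 0.05. The shares over all genes at that level were 3.96% higher and 3.41% lower.

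Nephron progenitor genes had a lower median in Ezh1-het on slide 1. Their median was -0.20, with -0.47 on slide 1 and 0.06 on slide 2, and 0 of 30 passed in limma. At an unadjusted p under 0.05, 1 was higher and 3 lower, beside 3.96% and 3.41% over all genes. Six2, which keeps progenitors undifferentiated and drove the Ezh2 deletion, read 0.26, 0.31, -0.47 and -0.37 in Ezh2-KO and -1.03, -0.32, -0.43 and -0.20 in Ezh1-het, with overlap (difference -0.43, SE 0.26, adjusted p = 0.682). Cited1, of the earliest progenitors, differed by -0.09 (SE 0.13).

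**Figure D3:**
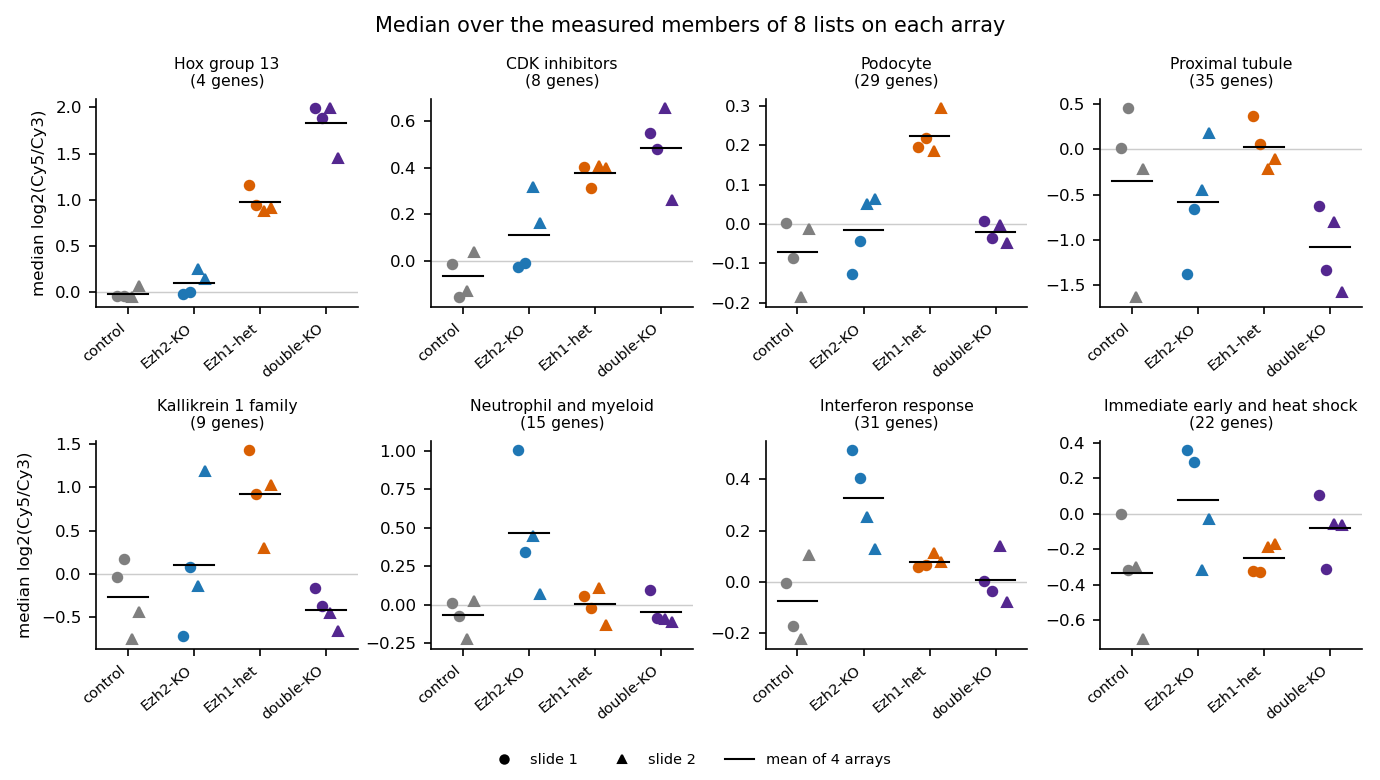
Each panel plots, for 1 list, the median log2(Cy5/Cy3) of its measured genes on each of the 16 arrays by group (circles slide 1, triangles slide 2, bar the mean of 4 arrays). Hox group 13 medians lie between 0.88 and 1.15 in Ezh1-het and between -0.02 and 0.25 in Ezh2-KO. Proximal tubule medians spread from -1.38 to 0.19 in Ezh2-KO and from -0.21 to 0.37 in Ezh1-het. They spread from -1.64 to 0.45 in controls and from -1.58 to -0.63 in double-KO.

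Neutrophil genes had their highest list median on Ezh2-KO array 1. S100a9, a calcium-binding protein of neutrophils, read 3.77, 1.60, 1.96 and 0.31 in Ezh2-KO and -0.53, -0.36, 0.26 and -1.21 in Ezh1-het. The groups did not overlap, but the Ezh2-KO arrays spread widely and the difference of -2.37 (SE 0.55) had an adjusted p of 0.321. Cstdc5, a stefin of neutrophils, differed by -1.90 (SE 0.42) and Stfa1, another stefin, by -1.89 (SE 0.41). Of 15 measured neutrophil and myeloid genes 0 passed in limma, and 0 were higher and 9 lower at an unadjusted p under 0.05. Over all genes 3.96% were higher and 3.41% lower at that level. The list median on each array was 1.00, 0.34, 0.45 and 0.07 in Ezh2-KO and 0.06, -0.02, 0.11 and -0.13 in Ezh1-het. The primary granule genes Mpo, Elane and Prtn3 differed by -0.08, -0.11 and 0.03.

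Macrophage and MHC class II genes had a median of -0.25 (-0.13 and -0.40 on the slides), with F13a1, a transglutaminase of macrophages, at -0.81 (SE 0.19, adjusted p = 0.321), and 0 of 21 passed in limma (0 higher and 1 lower at an unadjusted p under 0.05). Immediate early and heat shock genes, which respond to handling as well as to signals, had a median of -0.36 (-0.71 and 0.03). Fosb, a partner of Jun, was the largest at -0.80 (SE 0.35, adjusted p = 0.667), and 0 of 22 passed. Unadjusted, 1 was higher and 6 lower, beside 3.96% and 3.41% over all genes. Endothelial, stromal, erythroid, skeletal muscle, adrenal and gut lists had medians between -0.13 and 0.03, and 0 of their genes passed in limma (2 higher and 4 lower at an unadjusted p under 0.05). Liver secreted proteins had 0.22 (0.44 and -0.08), where Afp, the fetal albumin relative, read -3.65, -1.57, -0.35 and 0.30 in Ezh2-KO and 0.75, 0.55, -0.01 and -0.22 in Ezh1-het. The immediate early and liver lists, like the tubule lists, had their larger differences on slide 1, and the macrophage list on slide 2. The part of these cell types and of stress in the results was not tested.

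The interferon list, put together after Rsad2 and Irf1 had been seen, held 31 measured genes. Of these 1 passed the threshold, Rsad2, lower (0.0192% over all genes), and the median was -0.21 (-0.29 and -0.04 on the slides). Per array the median ran from 0.13 to 0.51 in Ezh2-KO and from 0.06 to 0.11 in Ezh1-het. These ranges did not overlap, and within Ezh2-KO the higher values were on slide 1. Because the list followed from genes already seen in these data, its count and medians support nothing.

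Set apart, the slides gave different pictures. In a fit of all 16 arrays with a term for each genotype on each slide, 328 genes differed between Ezh1-het and Ezh2-KO on slide 1 (2.1% of those tested, with 177 or 1.13% higher and 151 or 0.965% lower), and 1 on slide 2 (0.00639%), Olfr224. At an unadjusted p under 0.05 the counts were 3190 and 249. Across the 15646 genes the differences on slide 1 and slide 2 had a Pearson correlation of 0.00538 and a Spearman correlation of -0.0529. Genes are not independent replicates, and the genes of 1 array share its dye balance and loess curve.

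Between slide 2 and slide 1, 64 genes differed within Ezh2-KO (0.409%, with 15 or 0.0959% higher and 49 or 0.313% lower on slide 2) and 0 within Ezh1-het (0%, 273 at an unadjusted p under 0.05) in the same limma fit. A difference of differences (slide 2 minus slide 1) passed the threshold for 3 genes (0.0192%), all higher, and 1846 had an unadjusted p under 0.05. Irf1, an interferon regulatory factor, read 1.45, 1.11, -0.07 and 0.17 in Ezh2-KO and -0.15, -0.18, -0.02 and 0.12 in Ezh1-het, so the Ezh2-KO arrays of slide 1 were the high ones (1.45, SE 0.20, adjusted p = 0.0418). Ifi27, an interferon-inducible mitochondrial protein gene, read 1.46, 1.15, -0.15 and -0.32 in Ezh2-KO and -0.39, -0.21, -0.07 and -0.34 in Ezh1-het (1.64, SE 0.22, adjusted p = 0.0418). Rmst, a long noncoding RNA of neural progenitors, read 1.52, 1.60, 0.11 and 0.22 in Ezh2-KO and 0.45, 0.33, 0.36 and 0.30 in Ezh1-het (1.33, SE 0.14, adjusted p = 0.00929). None of the 3 passed after median centring in place of loess, where the adjusted p were 0.541 for Ifi27, 0.607 for Irf1 and 0.0594 for Rmst. Saa2, an acute phase protein gene, came next without passing (1.17, SE 0.18, adjusted p = 0.116).

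**Figure D4:**
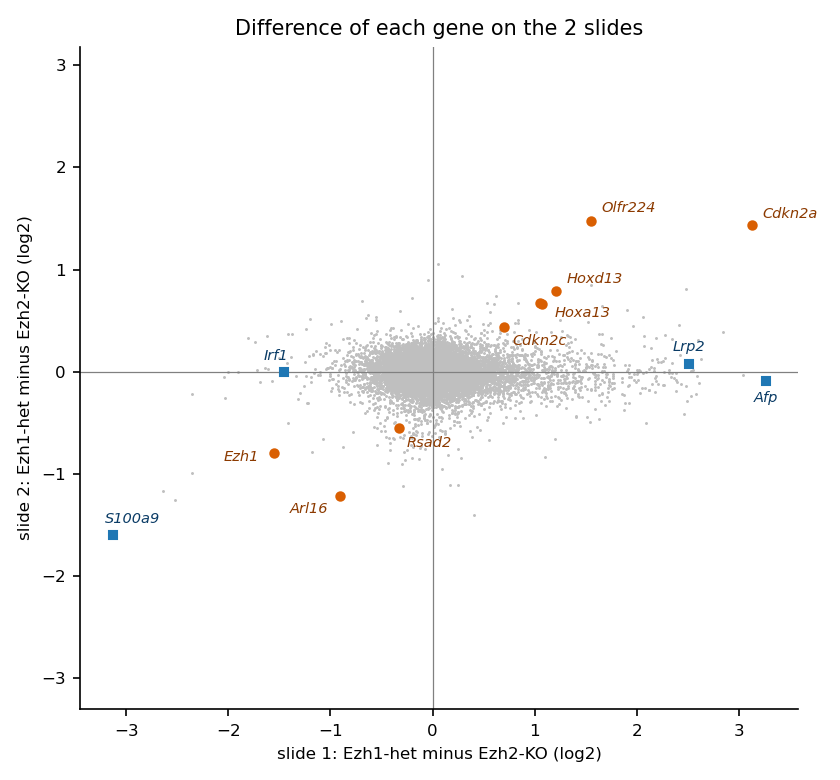
Each grey dot is 1 of 15646 genes at its log2 difference Ezh1-het minus Ezh2-KO on slide 1 (horizontal axis) and on slide 2 (vertical axis); circles are the 9 genes past the threshold, 8 of them named, and squares are 4 genes of the lists. The cloud is wide along slide 1 and narrow along slide 2, Lrp2 lies at 2.51 and 0.08, and Olfr224 lies at 1.55 and 1.48.

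All 56605 non-control probes, with no filter on dim signal, gave 11 past the threshold (0.0194%), with 6 higher (0.0106%) and 5 lower (0.00883%). They included the probes of Ezh1, Rsad2, Cdkn2a, Hoxd13, Hoxa13 and Olfr224, both probes of Arl16, and 2 probes without a gene symbol. Of the unnamed ones, A_55_P2739888 read 0.43, 0.53, 0.52 and 0.47 in Ezh2-KO and 0.06, 0.13, -0.03 and 0.11 in Ezh1-het (difference -0.42, SE 0.06, adjusted p over all probes 0.0147). A_55_P2788741 read -0.12, -0.21, -0.20 and -0.07 in Ezh2-KO and 0.26, 0.33, 0.26 and 0.32 in Ezh1-het (0.44, SE 0.07, adjusted p 0.0491). Both separated the groups on both slides. The Cdkn2c probe missed the threshold in this larger table, with an adjusted p of 0.0576. The count ran from 1 without Ezh2-KO replicate 2 to 40 without Ezh2-KO replicate 4.

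Between double-KO and Ezh1-het, the loss of the second allele, 59 genes differed (0.377%, with 37 or 0.236% higher and 22 or 0.141% lower). Since both steps share the Ezh1-het arrays, each gene's own values are given side by side. The test of the second step minus the first passed for 3 genes (0.0192%), with 1 higher (0.00639%) and 2 lower (0.0128%) in the second step. Foxf1, a regulator of visceral mesoderm, read 0.06, -0.02, 0.14 and 0.17 in Ezh2-KO, 0.16, 0.39, 0.33 and 0.26 in Ezh1-het and 1.49 to 1.83 in double-KO (1.20 more in the second step, SE 0.15, adjusted p = 0.00331). Its probe was well above background on 2 Ezh2-KO, 0 control, 4 Ezh1-het and 4 double-KO arrays. It thus passed the filter on dim probes only with arrays on which it was higher, and its first step may be compressed. Its call is therefore a description. It held in 13 of 13 other settings, no filter among them. Olfr224 rose by 1.52 in the first step and differed by 0.11 in the second (-1.40, SE 0.15, adjusted p = 0.00114). Ezh1 differed by -1.18 and then -3.42 (-2.25, SE 0.27, adjusted p = 0.0023). The other 7 genes past the threshold in the first step did not pass this test, among them Hoxd13, which rose by 1.00 and then 1.33, and Cdkn2c, which rose by 0.57 and then 0.51. Without Ezh2-KO replicate 4 the test called 87 genes, 83 of them lower in the second step, and in the other 7 fits that left out 1 array 3 or 4.

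Values of podocyte and tubule genes at the 2 steps are given for 3 genes. Ptpro differed by 1.00 at the first step and by -0.81 (SE 0.27, adjusted p = 0.189) at the second. Slc12a1 differed by 1.18 and then -2.56 (SE 0.65, adjusted p = 0.0929), and the kallikrein Klk1b26 by 1.21 and then -2.34 (SE 0.53, adjusted p = 0.0695). None of these passed the threshold at either step, nor did the contrast of the steps (adjusted p of 0.28, 0.322 and 0.28).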

How the data were processed

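Total RNA of 16 whole mouse kidney samples was hybridised to Agilent 2-colour arrays. Median spot and background intensities were read from the deposited scanner output of Agilent Feature Extraction 10.7.3.1, per the file headers and the submitters' processing notes. The software's own log10 ratio (Cy5 over Cy3, after its background and dye correction) was also deposited. It equalled the authors' value table within 0.005 on every array (median 0), and both served as alternatives (converted to log2).

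Median intensities were background-corrected (normexp, offset 50) and loess-normalised within each array in limma 3.58.1 under R 4.3.3, with control spots at weight 0 and flagged spots left out. This made the log2 ratios that were tested, from the deposited intensities. Spots of 1 probe were averaged. Probes had to be well above background in the sample channel on 4 or more of the 16 arrays, and the brightest probe stood for its gene (15646 genes). Symbols came from a RefSeq table (GRCm38.p6) by accession: 32994 of 56605 probes received 1. No probe coordinates are given, since the grid's annotation used mm9.

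Groups were compared with lmFit and eBayes in 1 fit of 16 arrays, two-sided, with Benjamini-Hochberg adjustment over all genes at 0.05. All adjusted p-values are from limma. A log2 fold change is given with its SE, n = 4 per group. A p-value here refers to the spread between samples within a group, which may be technical in part. That spread was pooled over the 4 groups and moderated over genes, so it is not that of the 2 compared groups alone. With only those 2 groups fitted, Cdkn2a, Cdkn2c, Ezh1, Hoxa13 and Rsad2 were among the genes that lost their calls. The slides were set apart in a fit with genotype and slide. Where no array of a group was well above background, the fold is written "at least": the brighter group's mean Cy5 level against the higher of the dim probe's level and the lowest level well above background, open to dye bias, or the fold of the ratio where that was smaller. The number of arrays limits the precision.

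Genes were named by rule: Ezh1, Ezh2, Cdkn2a and Cdkn2b, up to 15 genes per direction past the threshold without overlap, members of lists past the threshold or else the 2 largest differences of a list, and the smallest adjusted p of the second-step and slide contrasts. Some genes that the rule names are not reported here. The members, the 33 lists taken at the start and the interferon list were chosen with earlier results of these data known. Samples with the same replicate number were not treated as pairs, since the titles of the compared groups give no pairing. Alternatives covered background, normalisation, filter, probes, variance model, blocks, slides and single arrays. The fit was tested on simulated data.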

Additional observations from a re-analysis of the deposited data

Results flagged for a closer look

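Hoxd13 had 1 array apart from the rest of its group. Its log2 ratio was 1.293 on Ezh1-het array 2 against 1.041 to 1.072 on the other 3, a gap of 0.876 of the range of the group (Dixon's 95% value for 4 arrays is 0.829). The difference between the groups kept its call without that array. Of 32 groups of 4 arrays checked in this way, over 16 genes, this was the 1 that stood out, and chance flags about 1 in 20.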

How the results depend on the processing

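The count of 9 genes became 3 with only the 2 groups fitted, 5 with a trended robust variance, 218 with array weights (124 higher and 94 lower), 879 on slide 1 alone (685 higher and 194 lower), 3 on slide 2 alone and 16 with equal weight for each slide, a setting chosen after seeing the data. It lay between 7 and 10 with another background correction, scaling, filter or probe rule, with the slide as a block, and without controls 2 and 3 (also chosen after seeing the data). Leaving out 1 array at a time gave 3 to 35. The replicate numbers were not used as pairs. Same-numbered Ezh2-KO and Ezh1-het arrays had correlations of -0.312, 0.0491, 0.0652 and 0.0268 after removal of group means. These do not settle whether samples shared a litter or handling. The replicate block gave 4 genes. For all probes the count of 11 became 3 with only the 2 groups, 3 with the trended variance and 28 with array weights, and 1 to 40 without single arrays. The second step minus the first gave 3 to 87 without single arrays. The 3 genes that differed between the slides became 0 with median centring (1129 at an unadjusted p under 0.05 in limma). The cause of these shifts was not tested, beyond that fewer arrays leave fewer degrees of freedom.

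Of 25 alternatives, Olfr224 kept its call in 25 (adjusted p up to 0.0421), Hoxd13 in 22, Ezh1 in 21, Hoxa13 in 20, Cdkn2a in 18, Arl16 in 15, Rsad2 in 14 and Cdkn2c in 11. All 9 genes past the threshold kept their direction. The Cdkn2b difference of 1.15 passed in 4. The Ezh2 difference turned to 0.0508 on slide 2 alone. Dim probes (Olfr224, Hoxd13, Hoxa13, Hoxb13, Hoxc13, Foxf1, Rsad2) are limited by background.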
